A study of Canis lupus familiaris with 59 samples.

Results

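The 150 genes described here were the most variable well-expressed genes among cortisol-secreting adrenocortical tumours of dogs. They were chosen by their measured spread over the tumours. CPM (a gene's value as a share of its library's total, per 1e6 counts) was taken for all 28570 Ensembl gene identifiers. A gene was well expressed when its median over the 49 tumours was 10 CPM or more and no library held a value of 10000 or more, which left 7959 genes. Of these, the 150 with the largest standard deviation (SD) of log2(CPM + 1) over the tumours were taken. A further 13 identifiers that the rule leaves out all lay outside these 150.

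The series holds 49 libraries of tumours and 10 libraries of normal adrenal cortex, labelled healthy, all made from total RNA by CEL-Seq2, which counts the 3′ ends of transcripts with molecular identifiers. The labels give no treatment, age, sex, batch or tumour subtype, nor do they tie libraries to individual dogs. The p-values therefore speak for the spread from library to library, which may be partly technical. Library totals ranged from 1007920 to 5449077 in tumours and from 1062090 to 2828219 in normals. The numbers in the titles are used as names, as in tumour 18 or normal 5. The table pairs no identifier with a gene symbol, and 0 of the 28570 could be matched to a symbol, so genes are given by identifier, their functions are not stated, and the labelled tissue could not be checked against marker genes.

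The adrenal cortex is built of layers that make different steroid hormones, and its middle layer makes cortisol under the control of ACTH from the pituitary. A cortisol-secreting tumour of the cortex releases the hormone without that control. A piece of such tissue also holds blood vessels, connective tissue, immune cells and at times cells of the adjoining medulla. In such bulk samples, fewer cells of a type and less RNA per cell cannot be told apart.

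The SD of the 150 genes over the tumours ran from 1.37 to 2.81, with a median of 1.57, against a median of 0.45 for all 7959 well-expressed genes. These values chose the genes and are a description only. The limit fell in a dense part of the ranking. The 3 genes just inside had SDs of 1.38, 1.37 and 1.37, and the 3 just outside had 1.36, 1.36 and 1.36. The variable genes were not more abundant than the rest. Their median tumour level was 27.2 CPM over the 150, with a range from 10.1 to 1064 CPM, against 34.1 CPM over all well-expressed genes. Of the 150, 52 had a median under 20 CPM and 18 had 100 CPM or more.

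The error of counting was estimated at each gene's median level and the libraries' totals. It gave an SD of 0.19 in the median gene and at most 0.30, which is 1.32% of the tumour variance in the median gene and at most 4.16%. Readings far below the median carry a larger counting error, and other technical error between libraries was not estimated. Library depth was compared next. In edgeR's quasi-likelihood test of each gene against the log2 total over the 49 tumours, 0 of the 150 genes were called higher and 0 lower at an adjusted p under 0.05. Over all 13004 genes tested, 0.131% were called higher with depth and 0.0846% lower. At an unadjusted p under 0.05 there were 18 of the 150 genes (12%), against 12.1% of all genes. Pearson's r between a variable gene and the log2 total lay between -0.47 and 0.35.

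Many tumours lay far from the median. In the median gene, 11 of 49 tumours lay 4-fold or more from the tumour median in either direction, and the number ran from 5 to 30. Over all well-expressed genes the median number was 0. Low values were more frequent than high ones: 90 of the 150 genes had more tumours 4-fold below the median than above it, 54 had more above, and 6 had equal numbers. In 41 genes at least 1 tumour had no count at all. With the 2 farthest tumours of each gene left out, the SD was 1.41 in the median gene, and in 90 genes it was still above that of the first gene outside the 150.

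The distances between neighbouring tumours were also measured. For each gene, the tumours were put in order and the widest step between neighbours was taken, with at least 5 tumours on each side. The widest step was 0.50 on the log2 scale in the median gene, or 7.21% of the range, and 1.48 in the gene with the widest. Over all well-expressed genes, which spread less, the median was 0.13. Of the 150 genes, 5 had a step of 1 or more, which is a 2-fold difference.

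ENSCAFG00000017833 had the largest spread of all, with an SD of 2.81. It ran from 0 counts to 279 CPM in tumour 11, with a median of 27.8 CPM. In normals it ran from 6.09 CPM in normal 2 to 527 CPM in normal 5, with a median of 79.8 CPM and an SD of 2.09. The 6 tumours with 0 counts were tumours 30, 38, 42, 44, 45 and 46, where 0 counts allow a level of up to 1.09 to 1.88 CPM (3 counts of each total, counting error only). All of tumours 37 to 46 were low for it, with 2.70 CPM in tumour 37 as their highest. Tumours 27 to 36 held up to 31.5 CPM, and tumours 1 to 26 and 47 to 49 held between 0.92 and 279 CPM, with a median of 75.6 CPM. The sets overlapped, since 5 tumours of the last set and 4 of tumours 27 to 36 were at or below 2.70 CPM. No normal was as low as the highest of tumours 37 to 46. That set was singled out in these same libraries, and the gene was chosen for its spread over them. Nothing is therefore read from this separation. The tumour against normal difference of this gene did not pass the test, at -1.15 ± 0.72 on the log2 scale (SE, adjusted p = 0.51 in edgeR).

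The first question was whether normal cortex varied less in these genes. The SD of the 150 genes over the 10 normals had a median of 1.67 and a range from 0.62 to 3.32, against a median of 0.51 for all well-expressed genes. The normals had no part in the SD that chose the genes. All 150 genes had a normal SD above the median of the well-expressed genes, and 141 of them (94%) were above its 90th percentile. The 150 genes with the largest SD over normals included 96 of the genes chosen on tumours, which is 64% of each list. The normal SD was the larger of the pair in 81 of the 150 genes (54%), and in 62.4% of all well-expressed genes. That count uses the tumour SD, which chose the genes, so nothing is read from the difference. Across the 7959 genes, which are not independent replicates, the tumour SD and the normal SD correlated with a Pearson r of 0.81 and a Spearman rho of 0.69.

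**Figure D1:**
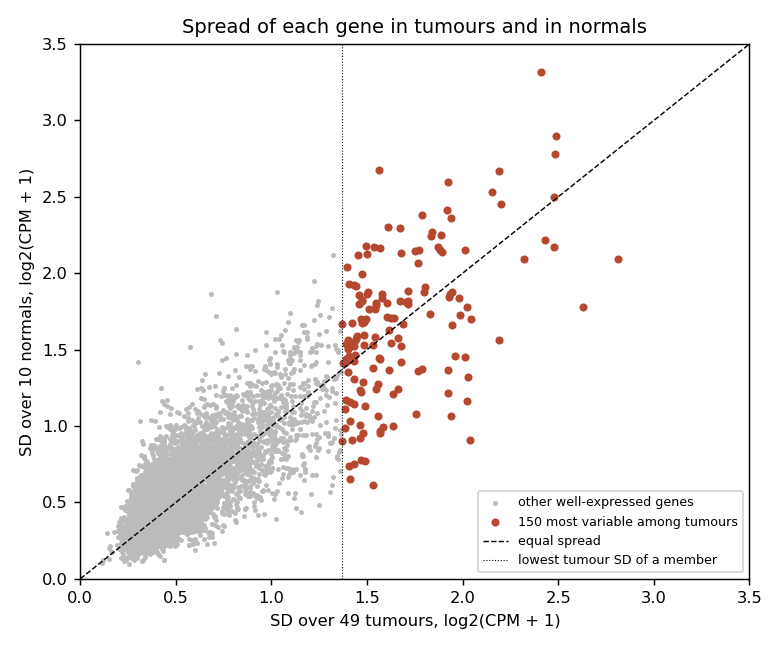
Each point is a well-expressed gene, with its SD of log2(CPM + 1) over 49 tumours on the x axis and over 10 normals on the y axis. The 150 variable genes (red, right of the dotted line by choice) lie on both sides of the dashed line of equal spread, at a median normal SD of 1.67 against 0.51 for all well-expressed genes.

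The ranges of the normals and the tumours are given as a description, since a wide tumour range is partly fixed by the choice of the genes. In 102 of the 150 genes (68%) all 10 normals lay between the lowest and the highest tumour, beside 52.5% of all well-expressed genes. The range of the normals was 73.9% of the range of the tumours in the median gene, and 73% in the median well-expressed gene. In 0 of the 150 genes were tumours and normals apart without overlap, and the same held for all 7959 well-expressed genes (0%). A value 4-fold or more from the tumour median was found in 24.1% of readings of these genes in tumours and 28.1% in normals. Over all well-expressed genes these shares were 1.14% in tumours and 1.67% in normals. The tumour share of the 150 is partly fixed by the choice of the genes.

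The second question was whether the genes were higher or lower in tumours than in normals. All 150 passed the filter on low counts. In edgeR's quasi-likelihood test over 13004 genes, 0 of the 150 were called higher, where 0.0846% of all genes were, and 1 was called lower (0.667%), where 0.508% of all genes were. With 1 gene called, nothing is read from this share. At an unadjusted p under 0.05 edgeR had 9 higher and 15 lower genes, 16% of the 150 beside 12.8% of all genes. DESeq2 had 11 higher and 12 lower, 15.3% of the 150 beside 12.4% of all genes. After adjustment DESeq2 called 2 of the 150 higher, where 0.215% of all genes were, and 0 lower, where 0.7% were. The median log2 fold change of the 150 was -0.06, with a range from -2.01 to 2.03, against 0.02 for all genes. In absolute size it was 0.51 in the median variable gene and 0.18 in the median of all 13004 genes tested. The 150 were chosen for their spread over the tumours, which enter this comparison, so nothing is read from that contrast.

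ENSCAFG00000008404 was the gene called lower in tumours. It ran from 4.81 CPM in tumour 25 to 1188 CPM in tumour 6, with a median of 49.7 CPM. In normals it ran from 36.1 to 2640 CPM, with a median of 83.3 CPM. Normal 5 held the 2640 CPM, normals 1 and 2 held 230 and 319 CPM, and the other 7 normals held 103 CPM or less. It fell by 2.01 ± 0.51 on the log2 scale (SE, adjusted p = 0.039 in edgeR), and 17 of 49 tumours were below all normals. Without normal 5 the log2 fold change was -0.26 (edgeR adjusted p = 0.90), and DESeq2 gave -0.19 (adjusted p = 0.89). The call did not hold in 11 of 21 alternative fits, whose adjusted p lay between 0.027 and 0.904.

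The third question was whether the variable genes moved together. Among the 11175 pairs of the 150 genes, 5.94% had an r above 0.5 over the 49 tumours and 1.54% an r below -0.5, against 1.44% and 0.354% of all pairs of well-expressed genes. The genes were chosen on these tumours, so the same pairs were looked up in the 10 normals. In normals, 15.5% of the pairs of the 150 genes had an r above 0.5, against 17.6% of all pairs of well-expressed genes. An r below -0.5 was found in 8.87% of them, against 5.34% of all pairs. The mean r was 0.06 against 0.13, and the median absolute r was 0.315 against 0.298. Of the 664 pairs with r above 0.5 in tumours, 627 (94.4%) had a positive r in normals, with a mean of 0.51, where 55.8% of all pairs of the 150 genes were positive. Of the 172 pairs with r below -0.5 in tumours, 156 (90.7%) were negative in normals, with a mean of -0.44. Pairs share genes and libraries, so these counts carry no test. Tumours 18 and 23 lay farthest from the tumour medians. Without them 620 pairs had an r above 0.5, and 94.2% of those were positive in normals.

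Clustering of the 150 genes by their correlation over tumours (average linkage, cut at a height of 0.5) gave 8 groups of 5 or more genes, which held 65 genes. The other 85 genes were in smaller sets or alone, and 21 genes had no partner with an r above 0.5. The groups are numbered by size. Their level in a library is the mean of log2(CPM + 1) over the genes, relative to each gene's tumour mean. Levels of groups 1, 2, 3, 5 and 7 correlated positively with each other over the tumours, with r from 0.27 to 0.72. Groups 4 and 8 had a negative r with each of these, from -0.70 to -0.39, and an r of 0.60 with each other. In normals the r between groups 1 and 7 was 0.85, between groups 1 and 4 it was -0.79, and between groups 4 and 8 it was 0.79. Not every relation was as close there: group 5 had an r of 0.09 to group 2 and of -0.43 to group 3 in the 10 normals, against 0.63 and 0.39 in tumours.

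**Figure D2:**
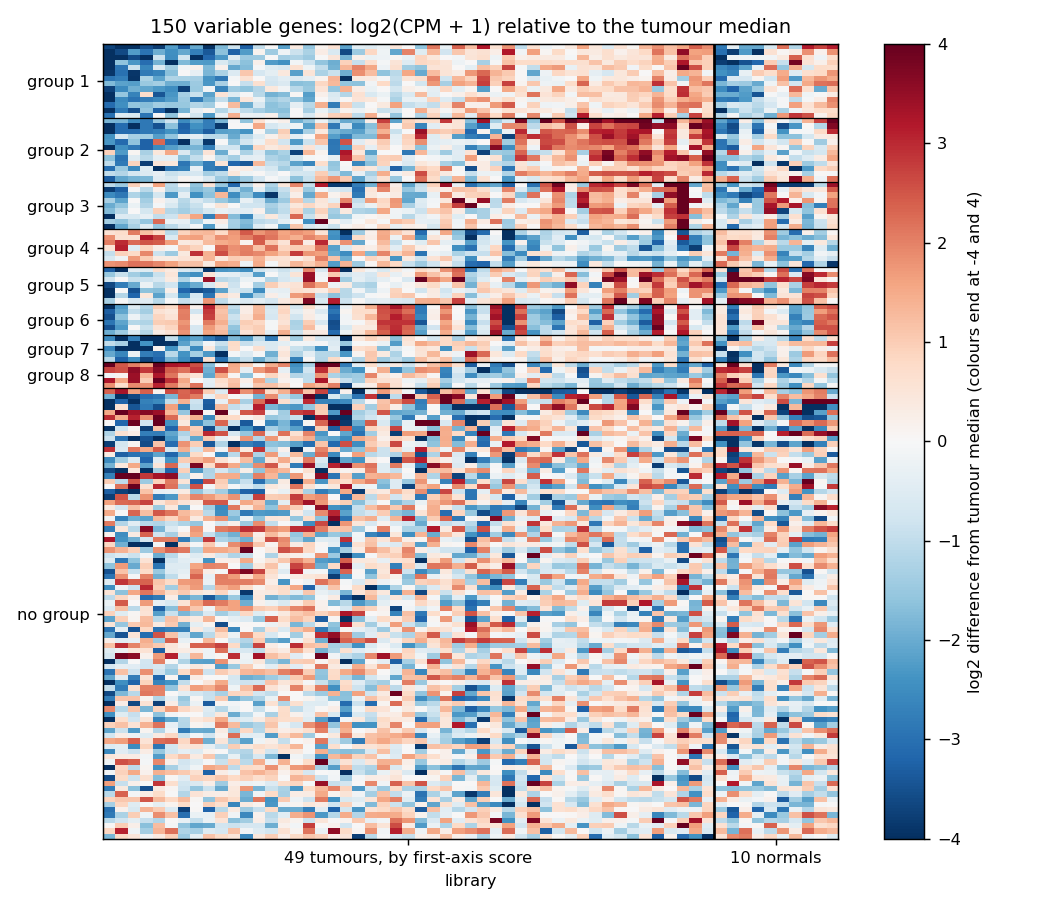
Rows are the 150 variable genes by group and columns are the 49 tumours (left of the black line) and 10 normals, each ordered by the first axis of variation. Colour shows log2(CPM + 1) relative to the gene's tumour median. Groups 1 and 7 go from low to high from left to right in both sets of libraries, groups 4 and 8 run the opposite way, and group 6 follows its own order.

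Group 1 held 14 genes with median tumour levels from 12.3 to 434 CPM. The mean r of its 91 pairs was 0.63 in tumours and 0.60 in normals, and all 91 pairs were positive in normals. Its level ran from -3.50 to 2.05 in tumours and from -2.49 to 1.65 in normals. Tumours 23, 11, 13, 21 and 20 were the lowest and tumours 18, 3, 25, 36 and 4 the highest. Its most central gene, ENSCAFG00000016161, ran from 0.98 CPM in tumour 23 to 142 CPM in tumour 14, with a median of 39.3 CPM. Normal 5, at 4.43 CPM, was the lowest normal, and normal 2, at 160 CPM, was above every tumour. For this gene, tumours with low levels stood out more than tumours with high ones: 8 were 4-fold below its median and 0 were 4-fold above it.

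Group 2 held 12 genes and had an uneven distribution over the numbered tumours. The mean r of its 66 pairs was 0.61 in tumours and 0.33 in normals, where 54 pairs were positive. Its level ran from -2.44 to 2.82 in tumours and from -1.85 to 1.52 in normals. The 5 highest tumours were 40, 42, 46, 37 and 39, and the median level of tumours 37 to 46 was 2.30. Its most central gene, ENSCAFG00000010114, ran from 19.7 CPM in tumour 31 to 610 CPM in tumour 42, with a median of 69.4 CPM. The normals lay between 27.0 and 103 CPM, with a median of 58.1 CPM. Tumours 37 to 46 held between 171 and 610 CPM of it. Every normal was below this range. Of the other tumours, 4 of 29 in the set of 1 to 26 and 47 to 49 reached it. In the set of 27 to 36, 2 of 10 did. Tumours 37 to 46 were singled out in these same libraries, which also built the group, so nothing is read from this separation. The difference of tumours from normals was 1.20 ± 0.50 on the log2 scale (SE, adjusted p = 0.28 in edgeR).

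Group 3 held 9 genes, and tumour 18 stood above all other libraries in it. The level was 5.24 in tumour 18, followed by 2.61 in tumour 37 and 2.34 in normal 8. Its most central gene, ENSCAFG00000008219, was at 1474 CPM in tumour 18, against a tumour median of 13.0 CPM. Tumour 23 had 0 counts of it, which allows up to 2.94 CPM. Normals held between 0.63 and 146 CPM, with a median of 14.4 CPM. The mean r of the pairs in the group was 0.57 in tumours, 0.44 without tumours 18 and 23, and 0.50 in normals.

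Group 4, with 7 genes, tended to be low where group 1 was high, with an r of -0.70 over the tumours. Tumour 31 was low in both, at -1.45 in group 4 and -0.53 in group 1. Tumours 25, 33, 36, 3 and 31 were the lowest and tumours 21, 17, 6, 10 and 1 the highest. Its most central gene, ENSCAFG00000011927, ran from 1.31 CPM in tumour 25 to 1156 CPM in tumour 5, with a median of 210 CPM. The normals held between 24.8 and 744 CPM, with a median of 261 CPM. The mean r of its pairs was 0.58 in tumours and 0.55 in normals, and all 21 pairs were positive in normals. For ENSCAFG00000011927 alone, the 9 tumours 4-fold below its median outnumbered the 3 that were 4-fold above it.

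Group 5 was the group whose median differed most between normals and tumours, and it was singled out for this after the values were seen. Its level had a median of 1.36 in normals and -0.19 in tumours, and 7 of 10 normals were above the tumour median. All 7 genes had a negative log2 fold change in tumours, from -1.56 to -0.54. They were grouped because they vary together, so the 7 are not separate pieces of evidence. With all libraries, none of the 7 passed edgeR's adjusted threshold or that of DESeq2. At an unadjusted p under 0.05 in edgeR there were 4 of the 7, beside 16% of the 150 and 12.8% of all genes. Without tumours 37 to 46, 2 of the 7 were called lower (adjusted p = 0.040 and 0.045 in edgeR). In that fit 54 of all 12582 genes tested were called lower. In the 20 libraries numbered 1 to 10, 2 of the 7 were called lower without a replicate block (adjusted p = 0.023 and 0.024 in edgeR) and 0 with it. Over all 9769 genes tested there, 6 were lower without the block and 1 with it. Groups 7 and 8 held 5 genes each. Group 7 was lowest in tumours 21, 11, 27, 13 and 1. Group 8 was highest in tumours 27 and 13, at up to 3.87, and in normal 5, at 3.16. The mean r of its pairs was 0.58 in tumours and 0.73 in normals.

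**Figure D3:**
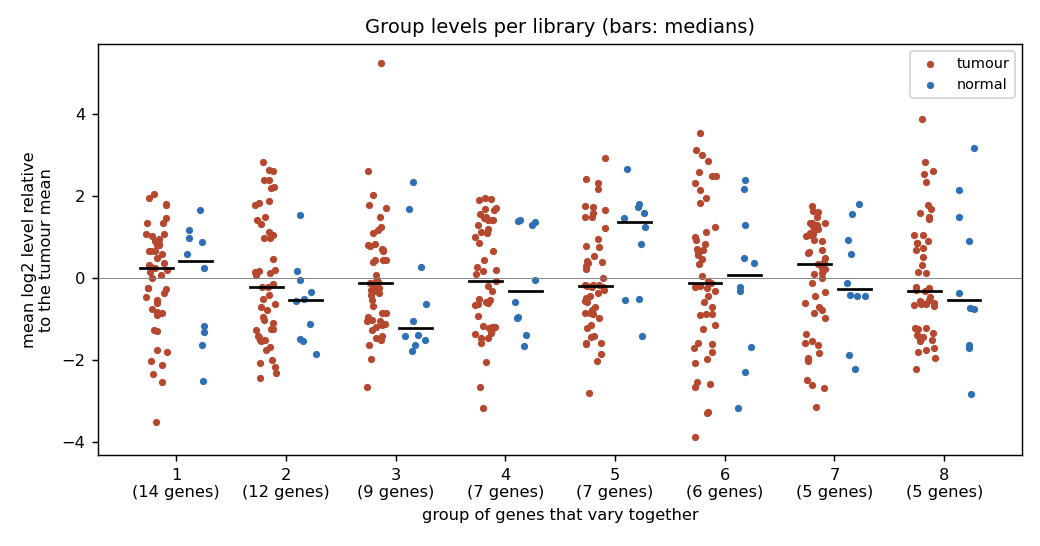
Each point is a library, with the mean log2 level of a group's genes relative to the tumour mean on the y axis, for 49 tumours (red) and 10 normals (blue), and bars mark medians. All normals lie inside the range of the tumours in groups 1 to 6, while normal 2, at 1.80, is just above the highest tumour in group 7 and normal 9, at -2.81, is below the lowest in group 8.

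Group 6 was the tightest of the groups and was singled out after its values were seen. The r of its 15 pairs ran from 0.92 to 0.99 over the tumours, and their mean was 0.95 in tumours and 0.93 in normals. Its most central gene, ENSCAFG00000032057, ran from 0.44 CPM in tumour 25 to 266 CPM in tumour 36, with a median of 21.6 CPM. In normals it ran from 1.77 CPM in normal 5 to 129 CPM in normal 2, with a median of 29.0 CPM. The ratios between the genes were not fixed, however. Over the 15 pairs, the SD of the log2 difference between the genes ran from 0.29 to 0.79 in tumours and reached 1.49 in normals. ENSCAFG00000030739, in the pair with the smallest SD, was at 2.0 times the CPM of the central gene in the median tumour, and the SD of their log2 difference was 0.29, against an SD of 1.94 for the central gene itself. The group's level was compared with those of the other groups, with r from -0.12 to 0.22 over tumours. In the 10 normals the r was 0.47 to group 7, 0.43 to group 2, 0.34 to group 3 and -0.32 to group 8. Tumours 36, 35, 2, 18 and 26 were the highest and tumours 25, 23, 32, 15 and 42 the lowest.

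The closest pair of all was ENSCAFG00000004617 and ENSCAFG00000036211, with an r of 0.998 in tumours and 0.993 in normals. This pair, too, was picked out after its values were seen. The first ran from 21.0 CPM in tumour 10 to 4017 CPM in tumour 25, with a median of 460 CPM, and the other from 22.9 to 3633 CPM in the same tumours, with a median of 400.1 CPM. The ratio of the first to the other stayed between 0.875 and 1.42 in tumours and between 0.974 and 1.87 in normals. Genes this close may share reads, as near-identical copies or overlapping models do, and how the authors' counting treats such genes was not tested. In normals the first ran from 12.4 to 913 CPM, with a median of 86.9 CPM. Its difference of tumours from normals was 1.98 ± 0.71 on the log2 scale (SE, adjusted p = 0.20 in edgeR), and that of the other was 2.03 ± 0.71 (adjusted p = 0.18 in edgeR). Normal 2 held the 913 CPM. Without it the log2 fold changes were 3.15 and 3.18 (edgeR adjusted p = 0.028 and 0.025). DESeq2 called both with all libraries, at adjusted p of 0.045 and 0.039. No other alternative fit called either gene, with edgeR adjusted p between 0.098 and 0.469.

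**Figure D4:**
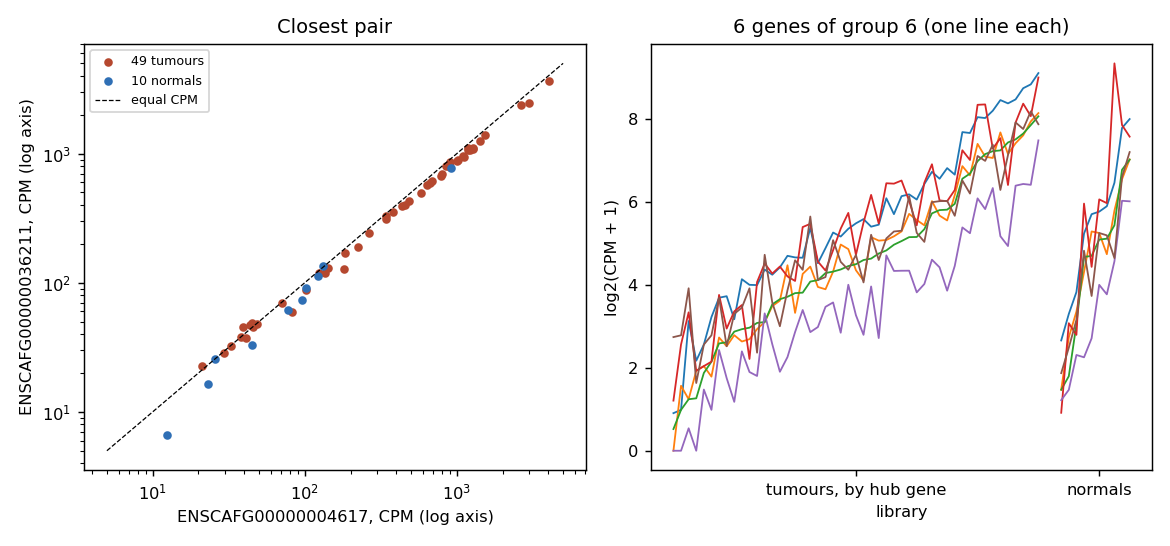
Left: CPM of the closest pair in each library, both axes on a log scale, with 49 tumours (red), 10 normals (blue) and a dashed line of equal CPM. Right: log2(CPM + 1) of the 6 genes of group 6, a line each, in tumours and then normals ordered by the most central gene, where all 6 lines climb together in both.

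The first axis of variation (the first principal component of the 150 genes, each scaled by its tumour SD) held 22.4% of their variance over tumours, against 11.9% for the first axis of all well-expressed genes. The 150 genes were chosen for their spread over these same tumours, and the sets differ in size, so nothing is read from this contrast. The second axis held 10.9%. On the first axis 94 genes pointed one way, among them all genes of groups 1, 2, 3, 5 and 7, and 56 pointed the other, among them all genes of groups 4 and 8. Tumours were spread along it from -1.08 in tumour 23 to 0.68 in tumour 40, with an SD of 0.47. The widest step between neighbouring tumours, with at least 5 on each side, was 0.095. The normals, which did not shape the axis, were placed on it from -0.88 to 0.52, with an SD of 0.45. Score and log2 total had an r of -0.04 over the tumours.

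**Figure D5:**
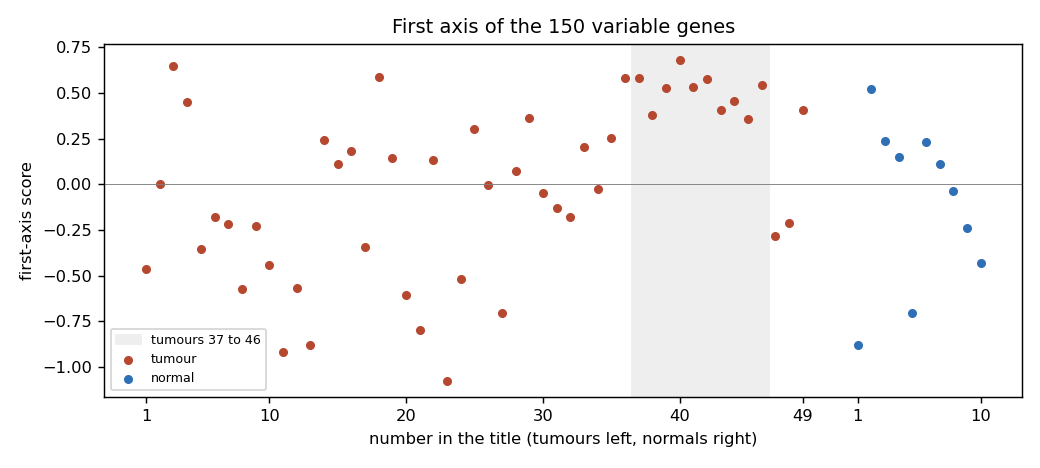
Score on the first axis of the 150 variable genes (y axis, no unit) by the number in the title (x axis), for tumours (red) and normals (blue). The shaded tumours 37 to 46 lie between 0.36 and 0.68, while the other tumours and the normals extend down to -1.08 and -0.88.

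All of tumours 37 to 46 scored above the median tumour, between 0.36 and 0.68. Against tumours 1 to 26 and 47 to 49, edgeR called 13 of the 150 genes higher in them (8.67%, where 2.69% of all genes were) and 16 lower (10.7%, where 3.58% were), among them 8 of 12 genes of group 2, all higher, and 5 of 7 genes of group 4, all lower. For tumours 27 to 36 the counts were 3 higher (2%, background 1.33%) and 3 lower (2%, background 1.38%). Both sets of numbers were singled out in these same libraries, and the genes were chosen for their spread over tumours that include them, so nothing is read from these shares.

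A few libraries held many of the extremes. The highest level of at least 1 variable gene was found in 37 of 49 tumours and the lowest in 39, so no tumour accounted for most of them. Tumour 18 held the highest level of 22 genes, 8 of them in group 3, with a median of 553 CPM against 20.3 CPM over tumours. Tumour 23 held the lowest level of 30 genes, 13 of them with 0 counts, and had 1019910 counts in all, the lowest total but 1 among tumours. The part of its depth in those low values was not tested. The mean absolute log2 distance from the tumour median over the 150 genes was 2.21 in tumour 23, 2.04 in tumour 18 and 2.00 in tumour 25, against a median of 1.23 over tumours. Normal 5, at 2.21, was as far, and it held the lowest level among normals in 42 genes and the highest in 20.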

How the data were processed

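The authors deposited a single table of estimated counts per Ensembl gene and library, from CEL-Seq2 libraries per the labels' protocols. Per the submitters' processing notes, the tools include BWA and the build is CanFam3.1. For the counter, annotation and filters, the record is silent: not given in the sources used here. All values (100%) are whole numbers of the form that a correction for collisions among 4096 molecular identifiers gives, which was read from the values. They needed no rounding. The tests had been planned for raw counts.

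CPM used each column's full sum. All groups, SDs and correlations used log2(CPM + 1). The tests were edgeR's quasi-likelihood F tests (edgeR 4.0.16, R 4.3.3, TMM scaling, robust fit, two-sided) on 13004 genes kept by filterByExpr, with Benjamini-Hochberg adjustment over all of them and calls at an adjusted p under 0.05. Fits among tumours used the same genes. DESeq2 1.42.0, other scalings and filters, libraries left out and distinct identifiers were alternatives. Standard errors are the absolute log2 fold change over the root of F. Tests were checked on simulated counts with 200 changed genes. Totals ranged from 1007920 to 5449077 per library.

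The genes, lists and tests were chosen with earlier results of these data known. The named genes were the gene with the largest tumour SD, called genes (up to 2 in each direction), and the most central gene of each of the 4 largest groups; group 6 and the closest pair were added after their values were seen. The planned marker lists need gene symbols and were not run.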

Additional observations from a re-analysis of the deposited data

Results flagged for a closer look

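Of 20 measures compared over the 10 normals (totals, first-axis score, distance from the tumour medians, 8 group levels and the named genes), 1 had a library far from the other 9 by Dixon's test. Chance alone gives this in about 1 of 20 sets. ENSCAFG00000008404 had a log2(CPM + 1) of 11.37 in normal 5, and the gap to the next normal was 0.494 of the whole range. This gene was named because of its difference between tumours and normals in these same libraries, so that rate does not hold for it.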

How the results depend on the processing

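In the tumour against normal comparison, 0 variable genes were called higher and 1 lower. The higher count was 2 with DESeq2. The lower count was 0 with DESeq2, library totals only, no filter on low counts, distinct identifiers, log2 total as a covariate and without tumours 27 to 36. It was 2, both in group 5, without tumours 37 to 46, where 54 of all 12582 genes tested were lower. With each normal left out in turn, higher genes numbered 0 to 2 and lower genes 0 to 1. The 2 higher genes were the closest pair, without normal 2, and the lower call was lost without normal 3 or normal 5. Without normal 2, 15 of all 13230 genes tested were higher. With a replicate block on the number in the titles, over 20 libraries, 0 variable genes were lower, against 2, both in group 5, without the block. Over all 9769 genes tested there, 1 was lower with the block and 6 without it. Same-numbered tumours and normals had deviations that correlated above 0.1 in 5 of 10 pairs, from -0.107 to 0.319, and 2 normals and 2 tumours were closest to their own number, so the numbers were not taken to pair samples. Library totals only gave 1 variable gene higher with depth, against 0. Over all 13004 genes tested it gave 115 higher, against 17. With a minimum median of 20 CPM, 98 of the 150 genes were again among the largest SDs, since the other 52 lie under that minimum. The other readings of the rule kept 114 to 144 of the 150. A tree height of 0.4 left 31 genes in 5 groups, a height of 0.6 gave 96 genes in 10 groups, and leaving out tumours 18 and 23, added after the data were seen, left 47 genes in 5 groups, against 65 in 8. The number of variable genes among the 150 largest SDs over normals was 91 to 98 with each normal left out, and pairs positive in normals stayed between 90.1% and 94.6%. The causes of these moves were not tested, beyond the minimum of 20 CPM.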
